A study of Mus musculus with 34 samples.

Results

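H3K27ac, the acetylation of histone H3 at lysine 27, was mapped by ChIP-seq in CTCF-WT bone marrow-derived dendritic cells (BMDCs) before (WT) and after (WTLPS) stimulation with LPS, lipopolysaccharide, a cell wall component of Gram-negative bacteria. The peak lists of both conditions, with 160511 of the 1393623 peaks in the 30 lists of the series, were compared. Peaks of a list that lay within 500 bp of each other were merged into regions. This gave 54962 regions in WT and 53081 in WTLPS. A region that shared at least 1 bp with a region of the other list was called shared, and the others were called WT-only or WTLPS-only.

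Cells came from the bone marrow of C57BL/6 mice, aged 8 weeks per the labels and of a wider age range per the study, with the genotype CreER, a tamoxifen-inducible Cre recombinase without floxed Ctcf alleles, and were grown in GM-CSF for 6 days. 4-OH tamoxifen was given on the first day, also to these controls, because the knockout cultures (KO and KOLPS, genotype CreER;CTCFfl/fl) need it to delete Ctcf. WTLPS and KOLPS cells received LPS at 100 ng/ml for 3 h, and WT and KO cells received none. Floating CD11c+ cells were enriched with beads, so a list describes a mixed population, in which more cells with a mark and more mark per cell cannot be told apart. The study used male and female mice, and the sex behind a list is not given in the sources used here. H3K27ac was precipitated with an Abcam antibody. There was 1 list per antibody and condition. No spread between cultures could therefore be measured, and every value below describes these lists. Intervals in parentheses are 95% intervals for counting error alone, and neighbouring regions are not independent of each other.

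H3K27ac lies at active promoters and enhancers and is written mainly by the acetyltransferases p300 and CBP. LPS binds TLR4 with its partners CD14 and MD-2 and signals along an arm through MyD88, which leads to NF-κB, and another through TRIF, which leads to IRF3 and type I interferon. p65 (RelA) is the NF-κB subunit with the main transactivation domain. It waits in the cytoplasm bound to IκB proteins, enters the nucleus once these are degraded, and binds κB sites of inflammatory genes. Interferon that the cells release then acts through a transcription factor complex that contains IRF9 and binds the interferon-stimulated response element (ISRE).

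The deposited fold of a peak is the fragment pileup at its summit over the background, with 1 added to both. Whole fragment numbers could be recovered from fold and p-value for 99.999% of the WT and of the WTLPS peaks with −log10 p below 25. The background was nearly the same, 1.17 fragments per base in WT and 1.2 in WTLPS, and the median peak of either list had 9.0 fragments at its summit. The background was lower in the CTCF-KO lists, 0.748 in KO and 0.801 in KOLPS. The CTCF lists held 60537 peaks in WT and 20151 in KO. Of 15 dendritic cell markers 14 had an H3K27ac peak at the promoter in both WT lists, among them Itgax (CD11c), with a fold of 21.6 in WT and 16.8 in WTLPS, and Zbtb46 (9.2 and 17.7), while Flt3 had none. No promoter of the 5 B cell, 5 erythroid and 5 mast cell and basophil markers had a WT or WTLPS peak. Of 6 T cell markers Lck had a WTLPS peak only and Cd4 a WT peak only. Of 6 neutrophil markers Camp had one in WTLPS only, and of 5 markers of other tissues Cdh1 had one in WT only.

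WTLPS-only regions numbered 22929, 43.2% of all WTLPS regions (42.8 to 43.6%). WT-only regions numbered 25274, 46.0% of all WT regions (45.6 to 46.4%). The WT list was also the longer one, with 83461 peaks against 77050. With the strongest 77050 peaks of either list, the ratio of WTLPS-only to WT-only regions was 1.08 instead of 0.907. The single-list regions were small and weak. WTLPS-only regions had a median width of 279 bp, a median fold of 4.1 and a median of 8.0 fragments at the summit. WT-only regions had 266 bp, 4.14 and 8.0. Shared regions measured 986 bp in WTLPS and 1129 bp in WT and had median folds of 5.9 and 5.98. Single-list regions thus covered 9.96 Mb in WTLPS and 10.5 Mb in WT, against 56.9 and 58.7 Mb for shared regions.

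Presence in a single list went with strength. With regions ordered by fold and cut into 10 bins, in the weakest bin of WTLPS regions 74.3% (73.1 to 75.5%) had no WT counterpart, and in the strongest bin 1.09% (0.846 to 1.41%). In WT the share went from 78.9% to 0.655%. At a fold of at least 8, 172 of 7763 WTLPS regions and 123 of 8228 WT regions were found in a single list. At a fold of at least 10 there were 46 and 26 such regions. The regions also lay close to those of the other list. Of WTLPS-only regions 16.4% lay within 500 bp of a WT region and 76.1% within 10 kb. For WT-only regions and their WTLPS neighbours these shares were 15.5% and 77.5%.

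**Figure D1:**
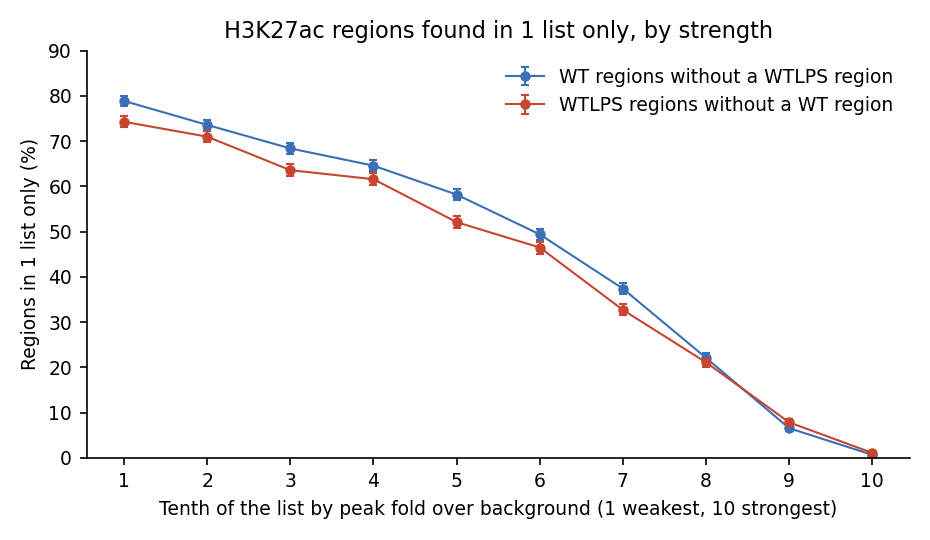
Share of merged H3K27ac regions found in 1 list only (vertical axis, %) in each of 10 bins of the list ordered by peak fold (horizontal axis, weakest to strongest), with WT in blue and WTLPS in red. Bars are 95% Wilson intervals. The share falls from 78.9% to 0.655% in WT and from 74.3% to 1.09% in WTLPS.

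Single-list regions lay mostly away from start sites. Each gene was given 1 start, that of its longest transcript, and its promoter reached 2.5 kb from there in both directions. Regions elsewhere were called distal. Of WTLPS-only regions 86.5% were distal, of WT-only regions 82.7%, and of shared WTLPS regions 64.1%. By the summit of their strongest peak, 49.6% of WTLPS-only regions lay in introns, 33.2% outside genes and 3.64% in exons. The nearest start of a protein-coding gene was a median of 37.5 kb from distal WTLPS-only regions and 33.1 kb from distal WT-only regions.

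Sequences are shown first for the sites on which the p65 results turn. The first 4 lie within 50 bp of a p65 summit, in p65 peaks that overlap a distal WTLPS-only region. Il1a is the only gene of the inflammatory lists used here with such a match, and the others have the highest p65 folds among the 8 strongest WTLPS-only regions with a match within 30 bp of the summit. They are named by the nearest protein-coding start. The printed Il1a and Fam129a sequences lie outside the H3K27ac region itself. At the Il1a site a p65 peak was also present before LPS, with a fold of 7.01. Promoters of Il6, Cxcl2 and Cxcl10 follow as p65-bound promoters with H3K27ac in both lists. The last 3, of the interferon-stimulated genes Isg15, Ifit1 and Oas1a, hold an ISRE match and had no p65 peak. The κB pattern was GGG, a purine, any 2 bases, 2 pyrimidines and CC, and the ISRE pattern was GAAA, any 2 bases and GAAA. Capitals mark the first match to the κB pattern, or to the ISRE pattern in the last 3, on either strand. Coordinates are 1-based on GRCm38. Promoter sequences are from RefSeq on GRCm38.p6.
Il1a distal, chr2:129330759-129330803, plus strand: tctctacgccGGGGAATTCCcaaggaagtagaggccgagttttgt
Twist2 distal, chr1:91674331-91674391, plus strand: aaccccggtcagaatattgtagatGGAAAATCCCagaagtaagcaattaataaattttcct
Tlx1 distal, chr19:45176330-45176390, plus strand: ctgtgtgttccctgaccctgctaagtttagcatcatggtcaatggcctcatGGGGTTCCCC
Fam129a distal, chr1:151653633-151653693, plus strand: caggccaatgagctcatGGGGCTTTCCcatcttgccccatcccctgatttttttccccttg
Il6 promoter, chr5:30013045-30013104, plus strand: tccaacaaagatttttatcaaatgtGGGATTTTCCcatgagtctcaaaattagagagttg
Cxcl2 promoter, chr5:90903777-90903836, plus strand: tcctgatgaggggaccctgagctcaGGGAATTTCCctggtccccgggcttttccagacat
Cxcl10 promoter, chr5:92349014-92349073, minus strand: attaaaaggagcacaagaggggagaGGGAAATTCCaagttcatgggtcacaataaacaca
Isg15 promoter, chr4:156200862-156200921, minus strand: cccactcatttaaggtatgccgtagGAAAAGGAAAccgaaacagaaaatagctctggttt
Ifit1 promoter, chr19:34640760-34640819, plus strand: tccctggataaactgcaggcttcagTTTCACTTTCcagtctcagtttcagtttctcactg
Oas1a promoter, chr5:120907511-120907570, minus strand: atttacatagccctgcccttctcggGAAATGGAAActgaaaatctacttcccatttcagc

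A p65 peak after LPS overlapped 337 of 19830 distal WTLPS-only regions, 1.7% (1.53 to 1.89%). The share was 0.345% (0.274 to 0.434%) at distal WT-only regions and 10.2% (9.75 to 10.6%) at distal shared regions. WTLPS-only regions thus exceeded WT-only regions by 1.35 percentage points (1.16 to 1.56) and stayed below shared regions by 8.47 points (8.01 to 8.93). Before LPS, p65 peaks overlapped 0.0908% of WTLPS-only and 0.0574% of WT-only distal regions, a difference of 0.0333 points (-0.021 to 0.0915). Promoter regions showed the same order, with a p65 peak after LPS at 1.97% of WTLPS-only, 0.183% of WT-only and 9.69% of shared regions. Because wide regions have more room for a p65 peak, p65 was also counted within 500 bp of the strongest H3K27ac summit. The distal shares were then 2.45%, 0.785% and 8.58% for WTLPS-only, WT-only and shared regions. With H3K27ac peaks of −log10 q of at least 5 only, they were 7.14%, 1.37% and 19.0%, in the same order.

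The difference between shared and WTLPS-only regions was largest in the strongest regions. With the WTLPS list cut into 5 bins by fold, in the weakest bin p65 lay at 0.312% of WTLPS-only and 0.479% of shared distal regions, a difference of 0.166 points (-0.102 to 0.558). In the middle bin the shares were 1.62% and 2.1%, a difference of 0.473 points (-0.105 to 1.07). In the next weaker and next stronger bins the difference was 0.59 points (0.159 to 1.1) and 1.34 points (0.212 to 2.4). In the strongest bin p65 lay at 81 of 398 WTLPS-only regions, 20.4% (16.7 to 24.6%), and at 30.6% (29.3 to 31.9%) of shared regions, a difference of 10.2 points (5.81 to 14.1). This bin spans folds from 6.83 to 66.4, and distal WTLPS-only regions reach only 13.8, so strength is not matched within it. WT-only regions reached 3.12% (1.59 to 6.04%) in the strongest bin of their own list.

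**Figure D2:**
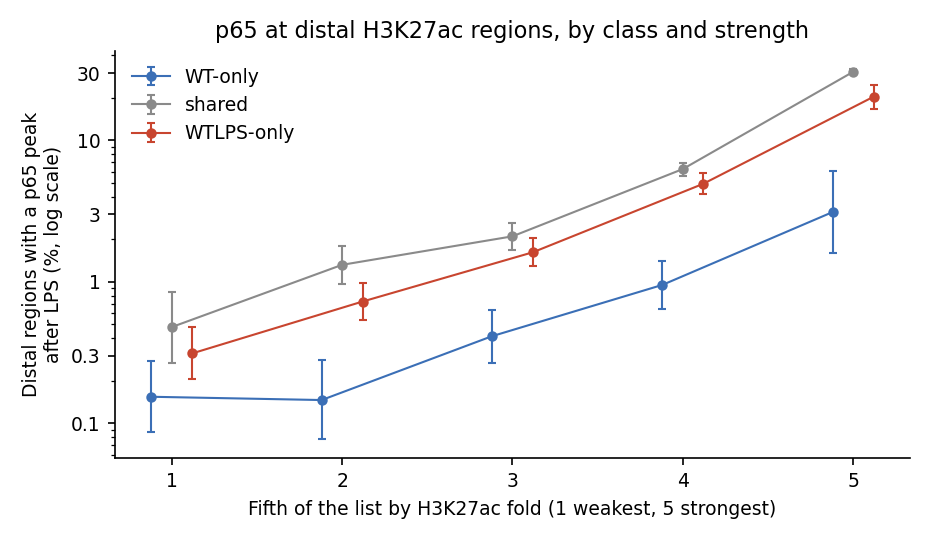
Share of distal H3K27ac regions that overlap a p65 peak of the WTLPS list (vertical axis, %, log scale) in 5 bins of H3K27ac fold in the region's own list (horizontal axis), for WT-only (blue), shared (grey, as WTLPS regions) and WTLPS-only (red) regions. Bars are 95% Wilson intervals. In the strongest bin the shares are 3.12%, 30.6% and 20.4%.

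Seen from p65, most sites lay in regions called shared. Since 1 bp of overlap makes a region shared, H3K27ac need not have been called at the p65 site itself in both lists. Of 5465 p65 peaks after LPS, 3956 (72.4%, 71.2 to 73.6%) overlapped a shared region, 405 (7.41%) a WTLPS-only region and 79 (1.45%) a WT-only region. The other 1025 peaks (18.8%) overlapped no H3K27ac region. The median p65 fold was 8.08 at WTLPS-only regions, 7.55 at shared regions and 6.47 outside H3K27ac. The 781 p65 peaks before LPS lay in shared regions at 85.9%. A full κB match within 50 bp of the summit was found at 42 of 344 p65 peaks in distal WTLPS-only regions, 12.2% (9.16 to 16.1%), and at 13.8% (12.4 to 15.2%) of those in distal shared regions. The H3K27ac summits of distal WTLPS regions without p65 held one in windows of the same length at 0.871%. These windows differ both in p65 and in the kind of summit, and the part of each was not tested.

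WTLPS-only distal regions with p65 differed from the others in several further lists. They were wider, with a median of 1253 bp against 276 bp, and had a median of 12 fragments at the summit against 8.0. H3K4me1, a mark of enhancers whether active or not, was already present in WT at 91.4% (87.9 to 93.9%) of them and at 66.0% (65.4 to 66.7%) of those without p65. The cohesin subunit SMC1 lay at 46.3% (41.0 to 51.6%) in WT and at 82.8% (78.4 to 86.4%) in WTLPS. Without p65 these shares were 8.58% and 9.78%. H3K27ac peaks of the CTCF-KO lists overlapped 40.9% of the regions with p65 in KO and 69.7% in KOLPS, against 10.1% and 12.7% without. A p65 peak of the KOLPS list was present at 14.2% (10.9 to 18.4%) of the regions with p65 in WTLPS, but the KOLPS p65 list was shorter as a whole, with 1752 against 5465 peaks. Width and strength differ between both sets, and their part in these shares was not tested.

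The strongest distal WTLPS-only region with p65 lay 18.4 kb from the start of Il12a, which encodes the p35 chain of IL-12 and IL-35. The region spanned chr3:68708694-68711569, outside genes, with a fold of 11.8 and a p65 fold of 7.55. No WT or KO peak lay there, and the KOLPS list had one with a fold of 5.0. A region of 4026 bp 5.64 kb from the start of Cd40, a costimulatory receptor, at chr2:165047046-165051071, had a fold of 11, no KO peak and a KOLPS fold of 6.18. A region 130 kb from Lpar1, a receptor for lysophosphatidic acid, at chr4:58421703-58424504, had the highest p65 fold of the 6 strongest such regions, 36.1, with an H3K27ac fold of 10.5. The other 3 lay nearest to Slco3a1, Uqcrfs1 and Pola2, with folds of 11.4, 11.4 and 10.4. All 6 overlapped H3K4me1 in WT, and 5 overlapped SMC1 in both conditions.

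Among the strongest distal WTLPS-only regions without p65 was an intronic region of 4174 bp at chr19:34568344-34572517, 12.7 kb from Ifit3, an interferon-induced antiviral gene, in the cluster of Ifit genes. Its fold was 12.3, with 4.58 in KO and 8.33 in KOLPS. Another, 37.1 kb from Coq2 at chr5:100635052-100640057, had a fold of 12.3, with 4.58 in KO and 11.7 in KOLPS. The highest folds of this set were 13.8 near Zfp180, 13.2 near Extl2 and 13.0 at 388 kb from Mc2r. The narrow region of 259 bp near Chd9, with a fold of 11.8, had a KO peak (8.58) and none in KOLPS or in WT H3K4me1.

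The strongest distal WT-only region, in an intron 22.0 kb from the start of Neurl1b at chr17:26435602-26438656, had a fold of 16.7, with 20.2 in KO and 9.15 in KOLPS. An intronic region 285 kb from Fat3 at chr9:16213963-16218378 had 12, with 14.9 in KO and 3.89 in KOLPS. Regions nearest to Ppp1r26, Atp11a and Efcab11 had a fold of 11 each, and the KO fold was above the KOLPS fold in all of these. KO folds were also the higher ones in general. At regions shared by both CTCF-WT lists, the median log2 ratio of KOLPS to KO fold was -0.25. A region of 163 bp on the Y chromosome, nearest to Zfy1 and without H3K4me1, had 11.5 in WT, 22.3 in KO and 25 in KOLPS. It had a peak in 13 of the 30 lists.

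WTLPS-only distal regions were clustered at some genes. Within 100 kb, 15315 of them had a nearest protein-coding start, spread over 5368 genes, with a median of 2.0 and a maximum of 40 per gene. The 10 genes with most were Slc13a1 (40 regions), Edn1 (38), Itgb8 (34), Slc8a1 (28), Klf7 (27), Cd200 (24), Inhba (24), Cd44 (22), Gtdc1 (22) and Gnaq (20). Edn1 encodes the peptide endothelin-1, Itgb8 the β8 integrin chain that activates TGF-β, Inhba the subunit of activin A, Cd200 an inhibitory ligand and Cd44 a hyaluronan receptor. The same genes held few distal WT-only regions, 0 at Edn1 and Itgb8, 1 at Inhba and 4 at Cd200, except for Cd44 with 17, Slc8a1 with 13 and Gnaq with 10. p65 lay at 1 of 40 WTLPS-only distal regions at Slc13a1, 3 of 34 at Itgb8 and 2 of 24 at Inhba, against 245 of 15315 over all genes. It lay at 0 of them at Edn1, Slc8a1, Klf7, Cd200, Cd44, Gtdc1 and Gnaq. The nearest start is a label of position, and genes in sparse neighbourhoods collect more regions.

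WT-only distal regions were most numerous at Ehf (36), Mtss1 (27), Irf2bp2 (24), Adtrp (22), Cxcr4 (22), Vav3 (22), Gm9817 (21), Tns3 (21), Trat1 (21) and Bhlhe40 (20). Cxcr4, the receptor for CXCL12 that holds cells in the bone marrow, had 22 WT-only and 1 WTLPS-only distal region, and its promoter fold was 13.8 in WT and 5.01 in WTLPS, with 17.7 in KO and 6.66 in KOLPS. Both stimulated lists were thus the lower ones. This was also the more frequent direction over all promoters with a fold in both lists compared. WTLPS was above WT at 40.5% of them and KOLPS above KO at 22.8%. At Ehf, an ETS family transcription factor, the promoter fold was 10.1 in WT, 4.55 in WTLPS and 4.58 in KO, and no KOLPS peak was present.

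**Figure D3:**
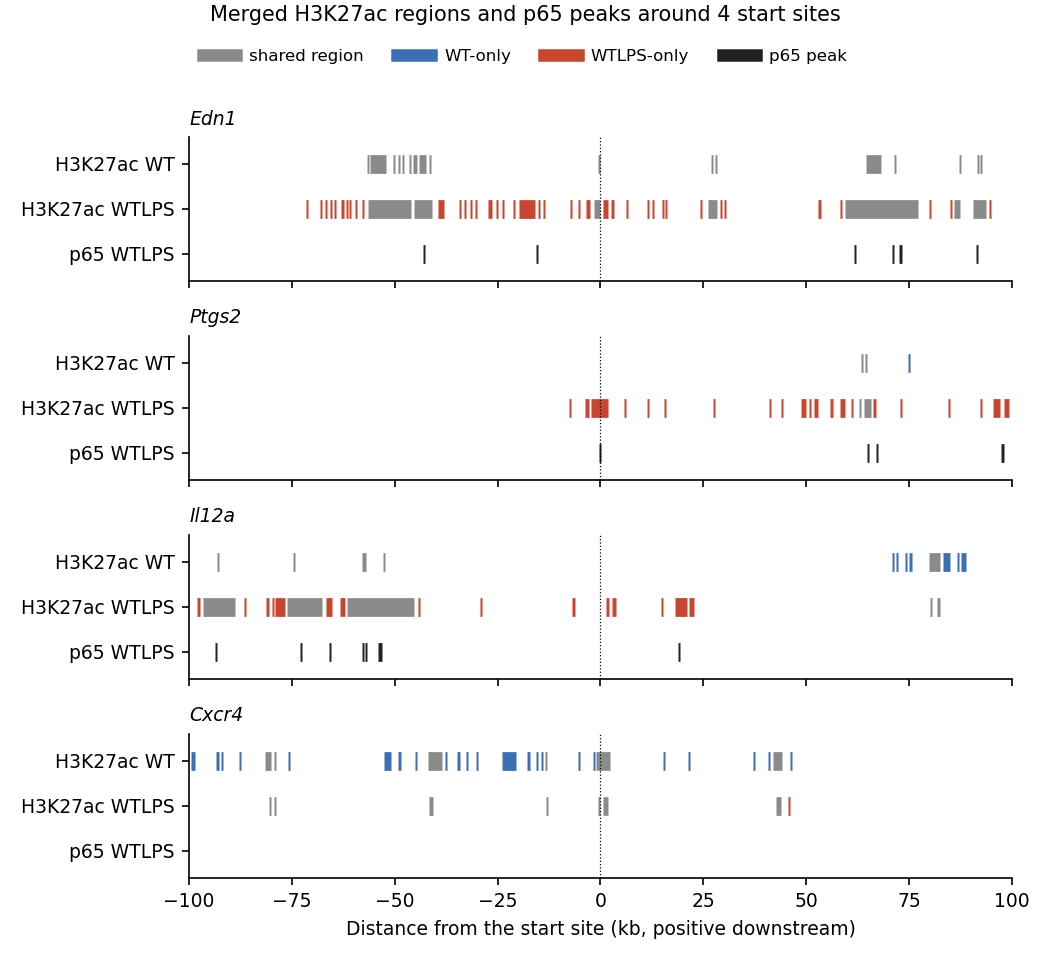
Merged H3K27ac regions of WT and WTLPS and p65 peaks of WTLPS within 100 kb of the start sites of Edn1, Ptgs2, Il12a and Cxcr4 (horizontal axis, distance in kb, positive in the direction of transcription), with shared regions in grey, WT-only in blue, WTLPS-only in red and p65 in black. Counting every region in this window, whatever its nearest gene, Ptgs2 has 21 WTLPS-only and 1 WT-only region, and Cxcr4 has 1 and 23.

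Promoters of 21938 protein-coding genes were then classed. A promoter was called gained when its window held a WTLPS-only region and no WT region, and lost in the reverse case. Gained promoters numbered 498, 2.27% of all, and lost promoters 1113, 5.07%. H3K27ac was present in both lists at 8541 promoters and in neither at 11740. Gained promoters carried H3K4me3, the mark of promoters in use or poised, in WT at 67.5% (63.2 to 71.4%), against 85.9% of lost promoters and 96.4% of promoters with H3K27ac in both lists. The repressive mark H3K27me3 lay in WT at 37.3% (33.2 to 41.7%) of gained, 20.8% of lost and 8.22% of promoters in both lists, and at 40.9% of promoters with H3K27ac in neither list. The difference between gained and lost promoters was 16.5 points (11.7 to 21.4). A p65 peak after LPS lay at 25 gained promoters, 5.02% (3.42 to 7.31%), at 5 lost ones, 0.449%, and at 6.71% of those in both lists.

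The strongest gained promoters included several interferon-inducible genes. Gvin1, a very large interferon-inducible GTPase with closely related copies, had a WTLPS fold of 22.8, with 6.86 in KO and 9.44 in KOLPS. Oas1a, which makes the 2′-5′ oligoadenylates that switch on RNase L, had 14.1, with 5.72 in KO and 12.8 in KOLPS. Trim30c (11.4), Slfn4 (8.65) and the neutrophil chemokine gene Cxcl1 (9.1) were also among the 12 strongest, with KO folds of 5.15, 5.15 and 4.0 and KOLPS folds of 8.89, 6.11 and 7.58. Saa3, an acute-phase serum amyloid gene, had an H3K27ac fold of 8.19, no KO peak, a KOLPS fold of 3.23 and a p65 fold of 26.9 in WTLPS. The other 6 were Gm8369 (13.2), Asb13 (11.8), Rnase10 (10.9), Igip (9.1), Bbx (8.65) and Dcbld2 (8.65). For Gvin1, Oas1a, Trim30c, Slfn4 and Saa3, reads could be shared with near-identical family members. Gained promoters with p65 further included Ptgs2, which encodes cyclooxygenase 2, Serpinb2, Slpi, Tgm2, Tnfsf13b (BAFF) and Il1f6 (IL-36α).

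Lost promoters had WT folds of up to 15.6. This highest value, at Pisd, came without a KO peak and with a KOLPS fold of 7.0. Tfeb, a regulator of lysosomal genes, had a WT fold of 10.1, with 14.9 in KO and 7.77 in KOLPS. Lpin1, a phosphatidate phosphatase, had 11, with 10.3 and 4.44, and Adcy7, an adenylate cyclase, had 9.2, with 11.4 and 6.66. Tmcc2 (11) and Ccdc180 (9.66) had KO folds of 10.5 and 9.15 and no KOLPS peak. Ak8 and Spaca9 (both 12) share 1 peak. Arrdc2 (9.66), Cox5b (9.66), Ypel2 (10.1) and Mon1a (9.2) complete the 12 strongest.

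In most inflammatory gene lists the larger number of promoters carried H3K27ac in both lists, and each count of gained promoters below stands against 2.27% gained over all promoters. Of 26 proinflammatory cytokine genes 2 were gained (Il12a and Il1f6), 1 was lost (Lif) and 20 were in both lists. Of 19 chemokines 3 were gained (Cxcl1, Cxcl11 and Ccl12), Ccl24 was lost and 13 were in both lists. Of 17 LPS-induced enzymes 5 were gained. These were Nos2, the inducible nitric oxide synthase (WTLPS fold 4.55), Ptgs2 (6.37), Ptges, the prostaglandin E synthase (2.91), Plat (4.5) and Tgm2 (4.4). Of 30 interferon-stimulated genes Oas1a, Oas2 and Ifi44 were gained. All 17 NF-κB subunits and inhibitors and all 20 ribosomal protein genes had H3K27ac in both lists, as did 14 of 15 genes of MHC class II and presentation. Gained promoters of other lists were those of Tlr3, the costimulatory receptor Slamf1, Serpinb2 and the Fcγ receptors Fcgr1 and Fcgr4. Counts of lost promoters stand against 5.07% lost over all promoters. In other lists, 3 of 20 cell cycle genes (Ccnb1, Mcm6 and E2f1) were lost. So were 2 of 30 myeloid factors (Runx3 and Rxra) and 2 of 20 uptake receptors (Clec10a and Stab1). Of 25 AP-1 and immediate early factors 2 were lost, among them Fosb. Of 17 cholesterol and lipid efflux genes 1 was lost, the desaturase gene Scd1.

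At the 8541 promoters with H3K27ac in both lists, the highest peak fold of WTLPS over that of WT had a median log2 ratio of -0.09. It was above 0 at 3458 promoters, 40.5%. It lay more than 1 above the median at 277 promoters, 3.24%, and more than 1 below it at 100, 1.17%. Interferon-stimulated genes stood highest among the lists. Of 27 with a fold in both lists, 26 had a log2 ratio above 0 and 19 lay more than 1 above the median of all promoters, with a list median of 1.04. Isg15, a ubiquitin-like modifier, had folds of 8.74 in WT and 27.3 in WTLPS, with 8.01 in KO and 16.7 in KOLPS. Trim30a had 11.5, 37.8, 11.4 and 21.1 in the same order. Both stimulated lists were above both unstimulated ones at these genes, and also at Irf7, the transcription factor that amplifies interferon, with 4.14, 11.4, 6.86 and 20. Usp18, which removes ISG15 and dampens interferon signalling, had 12, 32.8, 12 and 22.8. Only Oasl1 went the other way in CTCF-WT, with 5.92 and 1.89, while KO had 8.47 and KOLPS 17.2. In the CTCF-KO lists, 25 of 28 genes of the list had a higher fold in KOLPS than in KO, with a median log2 ratio of 0.82, against -0.3 over all promoters.

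Cytokine and chemokine promoters had a median log2 ratio of 0.79 in either list. It was above 0 at 17 of 20 cytokine and 11 of 13 chemokine genes, and 8 and 4 lay more than 1 above the median of all promoters. Il6 (chromosome 5, start site at 30013144) had folds of 7.36 in WT and 23.7 in WTLPS, with 8.58 in KO and 11.7 in KOLPS. Il27, a subunit of IL-27, had 5.79, 21.8, 5.72 and 11.5. Tnf had 8.74 and 22.3 in CTCF-WT and 16.6 and 17.8 in CTCF-KO, and its neighbour Lta, with 5.52 and 22.3, has the same WTLPS, KO and KOLPS values, since both windows take in the same peaks. Cxcl2, a neutrophil attractant, had 5.06, 14.6, 8.58 and 17.8. At Il1b the values lay close together, with 10.1, 11.8, 17.2 and 15.0. In the CTCF-KO lists 13 of 21 cytokine genes and 9 of 13 chemokine genes had a higher fold in KOLPS than in KO, with median log2 ratios of 0.1 and 0.09. Over all promoters the fold was higher in KOLPS at 22.8%, with a median of -0.3.

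p65 at promoters divided these lists. A p65 peak of WTLPS lay at 15 of 26 cytokine (57.7%), 11 of 19 chemokine (57.9%) and 12 of 17 NF-κB (70.6%) promoters, but at 4 of 30 interferon-stimulated ones (13.3%), against 2.86% of all promoters. The highest p65 fold in the lists was 87.8, at Sod2, the mitochondrial superoxide dismutase, whose H3K27ac fold was 7.82 in WT and 20 in WTLPS, with 21.2 in KO and 20.5 in KOLPS. Of the NF-κB inhibitors Tnfaip3 (A20) had 23.9 in WT and 42.3 in WTLPS, while Nfkbia (IκBα) had 24.8 and 22.8 despite p65 folds of 18.1 before and 15.6 after LPS.

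Other lists stayed nearer the middle. NF-κB subunits and inhibitors had a median log2 ratio of 0.35, with 12 of 17 above 0. The median log2 ratio was 0.22 for 13 costimulatory and checkpoint genes, where Cd40 had 7.82 in WT and 19.6 in WTLPS and Cd274 (PD-L1) 25.3 and 42.8. It was 0.05 for 20 genes of the TLR pathway, with Cd14 at 5.52 and 11.4 and Tlr4 at 14.3 and 10.9. It was 0.29 for 17 migration and maturation genes, 0.08 for 14 genes of MHC class II and presentation and 0.17 for 8 LPS-induced enzymes. It was 0.11 for cholesterol and lipid efflux genes, -0.04 for dendritic cell markers, -0.08 for 20 ribosomal protein genes, -0.1 for AP-1 and immediate early factors, -0.13 for uptake receptors and -0.0 for 26 myeloid transcription factors. Cell cycle genes were lowest, with a median of -0.26 and 3 of 14 above 0, against 40.5% of all promoters. Among them Mcm5 had 7.82 in WT and 4.1 in WTLPS and Cdk1 6.36 and 3.64.

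**Figure D4:**
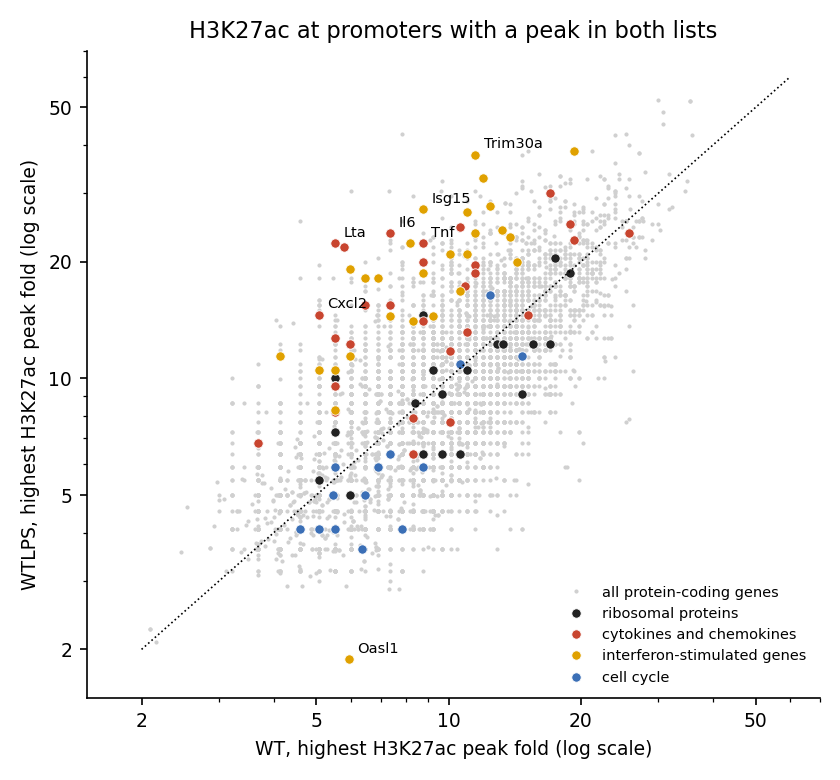
Highest H3K27ac peak fold at each protein-coding promoter with a peak in both lists, WT on the horizontal and WTLPS on the vertical axis (log scales, dotted line for equal values), with all genes in grey and 5 of the gene lists in colour. Interferon-stimulated genes lie above the line at 26 of 27 promoters, cytokines and chemokines at 17 of 20 and 11 of 13, and cell cycle genes at 3 of 14.

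The largest ratios over all promoters were at Olfr432 (4.6 in WT and 25.5 in WTLPS), Plgrkt (7.82 and 42.8), Lcp1, which encodes the actin bundler L-plastin (5.98 and 30.5), Ifit3b (7.33 and 30.5), Lta, and Pnpt1 (4.6 and 18.2). The WTLPS peak counted for Plgrkt has the fold of that at its neighbour Cd274. The lowest were at Zmynd8 (19.8 and 5.46), Ephx1 (14.7 and 4.1), Hist1h3g (14.7 and 4.1), 2310039H08Rik (12.9 and 3.64), Gpr35 (13.8 and 4.1) and Med11 (25.8 and 7.86). The WT peak counted for Med11 has the fold of that at its neighbour Cxcl16, whose WTLPS fold was 23.7. Olfr432, Ifit3b and Hist1h3g have close copies with which reads could be shared.

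Distal regions were also counted for the lists, each region at the gene with the nearest start if this lay within 100 kb. The 26 cytokine genes had 138 WTLPS-only and 29 WT-only distal regions, and the 19 chemokine genes 32 and 14. The 17 LPS-induced enzymes had 63 and 39, of which Ptgs2 had 18 and 1. NF-κB subunits and inhibitors had 80 and 52, with 20 and 5 at Tnfaip3 and 17 and 1 at Nfkbiz, an inducer of secondary response genes such as Il6. The interferon-stimulated list, highest in promoter ratio, had 36 and 24, and the cell cycle list, lowest in promoter ratio, had 20 and 16. Migration and maturation genes had 36 and 60. For 30 myeloid transcription factors the counts were 113 and 207, with 1 and 17 at Runx1, 8 and 18 at Prdm1 and 4 and 14 at Pparg. Over all protein-coding genes there were 15315 WTLPS-only and 16886 WT-only distal regions. Of the WTLPS-only ones near cytokine genes 6 of 138 had p65, and 245 of 15315 over all genes. Some of these genes are neighbours and some lists share members.

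Among 25515 places with H3K27ac in both lists, the log2 ratio of folds, relative to its median of -0.02, was above 1 at 665 (2.61%) and below -1 at 479 (1.88%). p65 lay at 39.7% (36.0 to 43.5%) of the places above 1, at 5.85% (4.07 to 8.32%) of those below -1 and at 11.6% of the rest. These 3 sets also differed in strength, with median WTLPS folds of 12.3, 4.55 and 5.92, and the part of strength in the p65 shares was not tested. Distal places with p65 had a median log2 ratio of 0.25 (quartiles -0.16 and 0.62), against 0.0 (-0.33 and 0.28) without p65. Promoter places had 0.23 and -0.1. The CTCF-KO lists, which share no H3K27ac library with the CTCF-WT lists, held a KO and a KOLPS peak at 515 of the places above 1 and at 387 of those below -1. There the log2 ratio of KOLPS to KO, relative to its own median, was 0.65 (quartiles 0.29 and 0.94) and -0.51 (-0.79 and -0.19). It was above 0 at 91.5% of the former and 15.8% of the latter, and at 49.6% of all places.

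The regions found in a single CTCF-WT list were then looked up in the CTCF-KO lists. Of WTLPS-only regions 11.9% had a KO peak and 14.5% a KOLPS peak, a difference of 2.69 points (2.19 to 3.18). Of WT-only regions 23.9% had a KO peak and 13.0% a KOLPS peak, a difference of -10.9 points (-11.4 to -10.4). Both differences were larger in stronger regions. In the strongest of 5 bins by fold, KO and KOLPS peaks lay at 31.4% and 56.8% of 474 WTLPS-only regions and at 83.1% and 52.3% of 396 WT-only regions. In the weakest bin KOLPS minus KO was 1.02 points (0.26 to 1.79) at WTLPS-only and -5.39 points (-6.18 to -4.61) at WT-only regions. At shared regions, taken from WTLPS, 63.2% had a KOLPS peak and 69.3% a KO peak, a difference of -6.05 points (-6.54 to -5.57). Gained promoters had a KO peak at 45.4% and a KOLPS peak at 48.0%, a difference of 2.61 points (-2.09 to 7.31). Lost promoters had 71.5% and 42.1%.

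**Figure D5:**
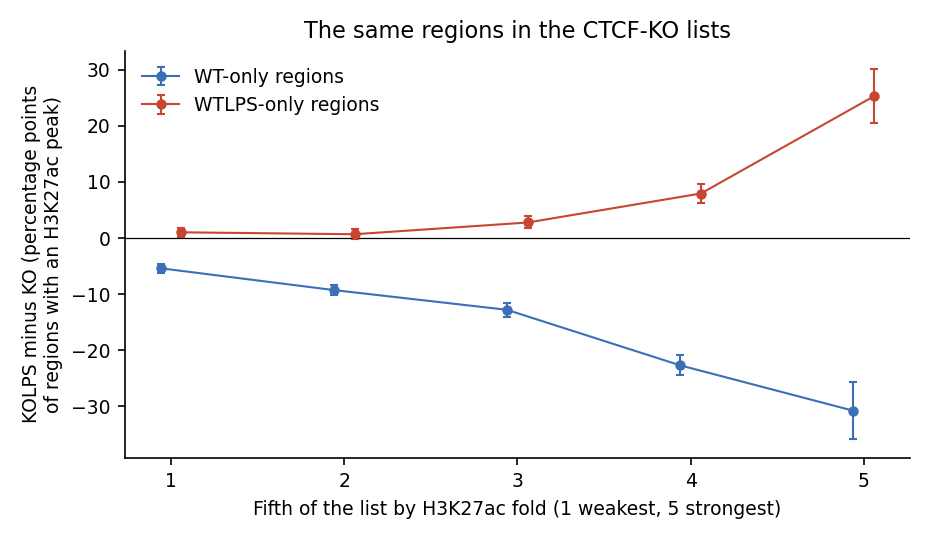
Share of regions with a KOLPS H3K27ac peak minus share with a KO peak (vertical axis, percentage points) in 5 bins of H3K27ac fold in the CTCF-WT list (horizontal axis), for WT-only (blue) and WTLPS-only (red) regions. Bars are 95% intervals of the paired difference. In the strongest bin the difference is 25.3 points at WTLPS-only and -30.8 points at WT-only regions.

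Other marks in CTCF-WT cells separated the classes. Before LPS, H3K4me1 was present at 66.5% of distal WTLPS-only, 74.4% of WT-only and 90.5% of shared regions, and after LPS at 66.6%, 74.9% and 90.9%. The list after LPS thus added 0.187 points (-0.308 to 0.681) at WTLPS-only regions. H3K27me3 in WT lay at 6.52% (6.18 to 6.87%) of distal WTLPS-only and 3.41% (3.18 to 3.67%) of WT-only regions. In WTLPS it lay at 3.31% and 2.03%, but this list was shorter as a whole, with 65880 against 96475 peaks. SMC1 shares differed in the direction of H3K27ac at both distal single-list classes. At distal WTLPS-only regions its share was 9.22% in WT and 11% in WTLPS, 1.8 points more (1.43 to 2.17). At distal WT-only regions it was 13.5% and 9.88%, a difference of -3.63 points (-3.99 to -3.27), and at shared regions, taken from WTLPS, 42.5% and 40.9%. The SMC1 list was also shorter after LPS, with 57354 against 63638 peaks. At promoter regions the difference was 1.36 points at WTLPS-only, -3.65 points at WT-only and -4.01 points at shared regions, taken from WTLPS. STAT5, the transcription factor activated by GM-CSF, was mapped in WT after renewed GM-CSF for 15 min. It lay at 1.72% of distal WTLPS-only and 1.93% of WT-only regions, a difference of -0.209 points (-0.47 to 0.0518), and at 12.1% of shared regions. CTCF in WT lay at 6.38%, 5.86% and 12.6% in the same order.

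Windows of 500 bp at the strongest summit of distal regions had a median GC content of 39.0% (quartiles 35.2 and 43.0%) for WTLPS-only, 42.0% (38.2 and 46.0%) for WT-only and 41.6% for shared WTLPS regions. The ISRE match was found at 9.32% of distal WTLPS-only and 7.28% of WT-only windows, 2.04 points more (1.51 to 2.58). The STAT match TTCNNNGAA was at 17.8% and 16.4%, 1.35 points more (0.617 to 2.08). Matches to κB lay the other way, at 4.91% and 5.62%, a difference of -0.713 points (-1.15 to -0.279), and so did the PU.1 match GAGGAAGT, at 2.88% and 3.78%. Intervals of the difference included 0 for the AP-1 match TGANTCA, the C/EBP match TTGCNNAA, the cAMP response element TGACGTCA and the CTCF motif. Distal shared WTLPS windows held the ISRE match at 9.26%, the STAT match at 16.8%, the κB match at 7.41% and the PU.1 match at 4.51%. κB is rich in G and C and the ISRE in A and T, so these shares move with base composition, whose part was not tested. Within distal WTLPS-only regions, κB matches were at 10.4% of those with p65 and 4.82% of those without.

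RefSeq promoters, from 250 bp before to 50 bp after the start, were matched for 16522 of 21911 protein-coding symbols. An ISRE match was present in 13 of 24 promoters of the interferon-stimulated list, 54.2% (35.1 to 72.1%), as in those of Isg15, Ifit1 and Oas1a printed above. It was in 19.0% (14.3 to 24.9%) of promoters with H3K27ac in both lists and a ratio more than 1 above the median, in 4.26% (2.64 to 6.8%) of gained promoters and in 3.44% of all. A κB match was present in 11 of 28 cytokine and chemokine promoters, 39.3% (23.6 to 57.6%), as in those of Il6, Cxcl2 and Cxcl10. It was in 18.5% (15.3 to 22.2%) of promoters with a p65 peak after LPS, in 9.84% of gained, 9.56% of lost and 9.18% of all promoters. A match describes letters in this window and is not evidence of binding.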

How the data were processed

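Paired reads of tagmented ChIP libraries were mapped by the authors to mm10 (bwa), freed of duplicates (picard) and passed to MACS2 for peak calling. The submitters' notes name BWA 0.7.12, Picard 1.77, MACS2 2.1.2 and deepTools 3.1.3. The study's methods give other versions. They describe peak calling per sample and replicate, while 1 list per condition was used here, and which replicate it comes from is not given in the sources used here. Whether lists shared an input is not given in the sources used here. Columns deposited by the authors and used here are the fold of a peak, a ratio of pileup to background, and the −log10 of p-value and of q-value. All peak ends lay within GRCm38 chromosomes, and 51.1% of protein-coding start sites lay in a WT H3K4me3 peak.

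Merging, overlap and motif counts were made with Python 3.11.15, numpy 2.4.6, pandas 2.3.3 and scipy 1.17.1, and checked on simulated intervals. Genes are from GENCODE vM21. List genes were matched by symbol in any biotype. Shares have Wilson intervals, differences between classes Newcombe intervals, and differences between lists over the same regions intervals for paired shares. No test was run, since no condition had a second list. Named genes are the list members, the 12 strongest gained and lost promoters, the 6 strongest distal regions of each kind, the 10 genes with most single-list distal regions and the 6 highest and lowest promoter ratios. Genes beside printed distal sequences (Twist2, Tlx1 and Fam129a) and gained promoters with p65 outside these lists (Slpi and Tnfsf13b) were chosen after their values were seen. No region named had a peak in 24 or more lists. The match searches ran on both strands. Some genes are not reported here. The regions, the 22 gene lists and the comparisons were chosen with earlier results of these data known. The H3K4me1 lists name another antibody supplier than the labels do.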

Additional observations from a re-analysis of the deposited data

How the results depend on the processing

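No paired analysis was possible because each condition had 1 list, and no replicate could be left out. Each of 11 results was recomputed under up to 9 settings. With merging at 0 bp, WTLPS regions without a WT region were 42.7%, the ratio of WTLPS-only to WT-only regions was 0.862, the p65 share of shared distal regions was 7.72%, KOLPS exceeded KO by 3.75 points at WTLPS-only regions, and KO exceeded KOLPS by 13.0 points at WT-only regions. With merging at 2000 bp, regions without a counterpart were 35.9% in WTLPS and 37.7% in WT, the ratio 0.935, the p65 shares 3.0%, 14.9% and 0.586% for WTLPS-only, shared and WT-only regions, and KO exceeded KOLPS by 11.9 points at WT-only regions.

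With only peaks of −log10 q of at least 5, the shares without a counterpart were 30.3% in WTLPS and 44.9% in WT, the ratio 0.532, the p65 shares 7.14%, 19.0% and 1.37%, lost promoters 1759, the KO differences 7.21 and 16.3 points, and the places with a log2 fold ratio above 1 numbered 360. At the most frequent background this threshold kept WT peaks from 10 fragments and WTLPS peaks from 11, so 48.5% and 39.1% of peaks stayed. With the same number of peaks in both lists the shares were 44.6% and 43.2%, the ratio 1.08, and KO exceeded KOLPS by 11.8 points at WT-only regions.

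With 50% of a region covered as the condition for shared, the shares were 56.1% and 60.4%, and p65 lay at 3.43% of WTLPS-only and 1.08% of WT-only distal regions. With p65 counted within 500 bp of the summit, its shares at WTLPS-only, shared and WT-only regions were 2.45%, 8.58% and 0.785%, and with p65 peaks at or above the median fold 1.12%, 6.42% and 0.187%. In every setting run, the p65 share was highest at shared and lowest at WT-only distal regions and both KO differences kept their direction. The other 32 values stayed within the interval of the main value or within 1.5 times a main count, among them all gained promoter counts, from 418 to 543. The settings for the fold ratio were chosen after seeing the data. For the remaining moves the cause was not tested.

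Depth limits the single-list regions, whose median summit held 8.0 fragments, so absence from the other list does not show absence of the mark. With 1 list per condition a difference between LPS and no LPS cannot be told apart from a difference between libraries.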
